A study of Mus musculus with 12 samples.

Results

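The 10 genes described here, Cdh1, Epcam, Cldn3, Cldn4, Cldn6, Cldn7, Ocln, Esrp1, Krt8 and Krt18, encode adhesion, junction and keratin proteins of simple epithelia and 1 splicing regulator. They were chosen by symbol. All 10 were among the 20325 genes of each table, and 9 had enough reads to be tested, that is at least 10 counts in at least 3 of 12 libraries. Cldn6 did not. Epithelial cells adhere through E-cadherin at adherens junctions, are sealed by claudins and occludin at tight junctions, and carry a keratin cytoskeleton in which Krt8 pairs with Krt18. Fibroblasts lack most of these proteins and gain them during reprogramming to iPSCs in a mesenchymal-to-epithelial transition, while Snail, Zeb and Twist family repressors keep E-cadherin off in mesenchymal cells. Mouse ESCs and iPSCs grow as compact colonies joined by E-cadherin.

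RNA was sequenced from mouse pre-iPSCs, a state arrested late in reprogramming, after 48 h (day 2) in 4 conditions with 3 biological replicates each, labelled A, B and C. Cells received the solvent DMSO, ascorbic acid at 50 μg per ml (AA), 2i, the pair of PD0325901 (a MEK inhibitor, 1 μM) and CHIR99021 (a GSK inhibitor, 3 μM), or both together (AA+2i). The study describes pre-iPSC lines as clonal and gives more than 1 way of deriving them, by retroviruses or an inducible cassette that carry the reprogramming factors. According to the study, such lines are past the first transcriptional wave of reprogramming and already express E-cadherin. Which line was sequenced is not stated. Lines were kept on irradiated feeder cells, and the treatment took place without them. The replicates are described as biological, but what separated them is not stated, so p-values measure only the spread between these samples. In bulk RNA, fewer cells of a type and less RNA per cell cannot be told apart.

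Libraries held 16173322 to 54392719 expected counts. Pou5f1, which encodes the reprogramming factor Oct4 and whose endogenous and introduced transcripts were not told apart here, was at 1865 to 9673 TPM (a level per transcript length), while Nanog was at 2.93 to 7.14 TPM in the 3 DMSO libraries. Markers of feeder fibroblasts were low. Their 12 genes summed to 12.27 to 27.14 TPM in DMSO, 14.45 to 22.55 in AA, 11.59 to 15.53 in 2i and 10.67 to 17.18 in AA+2i, with Lum at 0 in all 12 libraries. Of the 9 tested, 1 passed with AA+2i, Col3a1, which rose from 0.13 ± 0.08 to 0.56 ± 0.09 TPM (SD, n = 3; 2.25 on the log2 scale, adjusted p = 0.0205, edgeR), a call lost without DMSO A, DMSO B, AA+2i B or AA+2i C (adjusted p up to 0.0684) or without both DMSO A and AA+2i C, the libraries at the ends of the GC range described next. Thy1, on the same fibroblast list, was at 5.13 ± 2.31 TPM in DMSO, 12.6 ± 5.14 in AA, 1.15 ± 0.57 in 2i and 3.80 ± 1.41 in AA+2i. Its log2 change with 2i was −1.97 (adjusted p = 0.0601, edgeR), or −2.17 (adjusted p = 0.0087) with the GC correction described next. The 7 markers of primitive endoderm, another epithelium of the early embryo, were each under 1 TPM in every library.

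Libraries differed in how counts depended on the GC content of the transcript, and that touches several of the 10 genes. The median GC content of the tested genes was 51.0%. The members ranged from 45.1% for Ocln and 48.1% for Esrp1, through 51.9% for Cdh1 and 52.7% for Epcam, to 56.4% for Krt18, 56.9% for Krt8 and Cldn4, 57.4% for Cldn7 and 63.1% for Cldn3. A smoothed curve over all tested genes at 63% GC lay at −2.24 on the log2 scale in DMSO A and at 1.52 in AA+2i C, the libraries at both ends of the range. In DMSO A the log2 CPM, which scales counts by library size, of Cldn3 differed by −4.51 from the mean of the other DMSO libraries, and the differences were −2.76 for Cldn4, −1.86 for Krt8, −1.64 for Cldn7 and −1.58 for Krt18. Cdh1 and Epcam differed by −0.50 and −0.46, Esrp1 by 0.06 and Ocln by 0.51. The 5 tested members richest in GC thus differed more in this library than Cdh1, Epcam, Esrp1 and Ocln did. Fold changes are therefore given as measured and, where the call differs, with each library's GC curve removed. The part of GC content in the treatment differences was not tested beyond this correction.

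**Figure D1:**
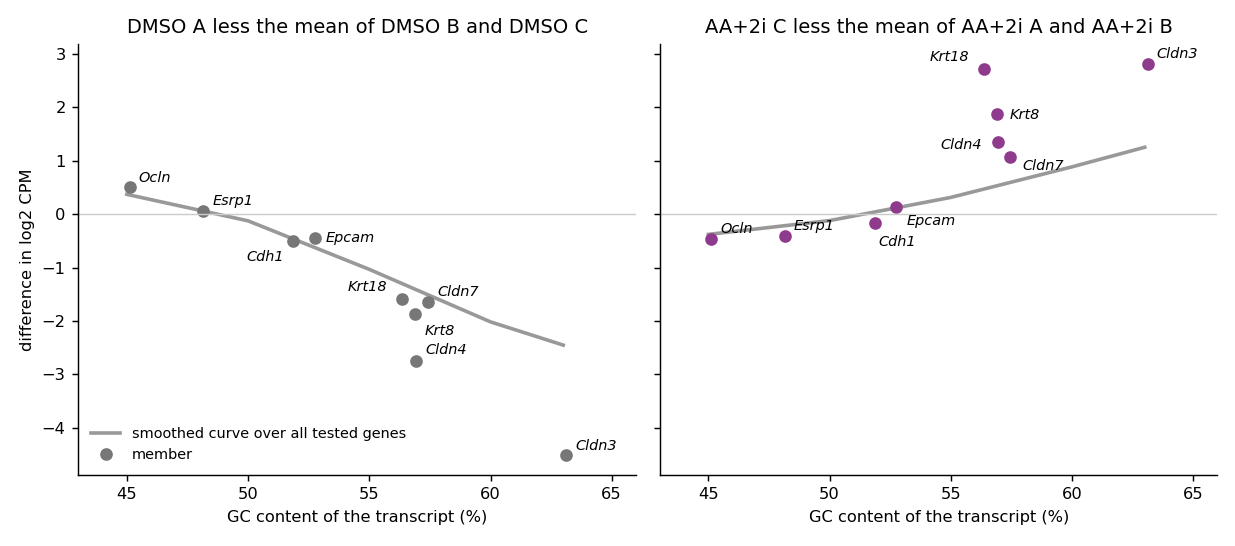
Difference in log2 CPM of each tested member between 1 library and the mean of the other libraries of its condition, against the GC content of its transcript in percent, for DMSO A (left) and AA+2i C (right). The grey line is the same difference for the smoothed curve over all tested genes. Members at 56% to 63% GC lie between −1.58 and −4.51 in DMSO A and above 1 in AA+2i C.

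Promoter sequence was read from RefSeq (GRCm38.p6) for the 250 bases before each transcription start, to see which letters the members share. A window was found for 8 of the 10 members, with 2 windows each for Cldn7 and Ocln. Cdh1 and Esrp1 had no entry. The E-box CAGGTG, searched on both strands (the windows may show its reverse complement), the form bound by Snail and Zeb repressors, was in 7 of these 8 genes and in 17.2% of 32851 windows of the same length. Cldn3 lacked it. A grainyhead-like motif (ACCGGTT or ACCAGTT, either strand) was found in Cldn4 alone among the members and in 3.27% of all windows, and a TCF/LEF motif (CTTTGAT or CTTTGAA, either strand) in 0 of 8 and in 7.48%. No matches overlapped each other, and genes with 2 windows had more letters in which to match. A match is a run of letters and not a measured binding site. Windows are shown for 4 members whose libraries with AA+2i all lay above those with DMSO, with matches in capitals, 5′ to 3′ on the strand of the gene. They are Epcam (chr17:87635729-87635978, plus strand), Cldn4 (chr5:134946935-134947184, minus strand), Cldn7 at its second start (chr11:69965171-69965420, plus strand) and Krt18 (chr15:102027966-102028215, plus strand). E-box matches begin 187 and 19 bases before the start in Epcam, 14 in Cldn4, 97 and 57 in Cldn7 and 214 in Krt18, and the grainyhead-like match of Cldn4 begins 92 bases before it.
Epcam: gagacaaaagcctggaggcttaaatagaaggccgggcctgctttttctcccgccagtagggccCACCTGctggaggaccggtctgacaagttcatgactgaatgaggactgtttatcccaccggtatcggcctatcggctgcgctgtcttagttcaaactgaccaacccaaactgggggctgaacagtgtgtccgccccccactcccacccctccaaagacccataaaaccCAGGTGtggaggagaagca
Cldn4: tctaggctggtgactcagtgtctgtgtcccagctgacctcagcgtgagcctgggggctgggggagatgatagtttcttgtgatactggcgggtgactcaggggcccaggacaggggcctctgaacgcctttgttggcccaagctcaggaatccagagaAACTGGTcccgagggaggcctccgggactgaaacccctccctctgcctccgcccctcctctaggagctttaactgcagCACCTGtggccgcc
Cldn7: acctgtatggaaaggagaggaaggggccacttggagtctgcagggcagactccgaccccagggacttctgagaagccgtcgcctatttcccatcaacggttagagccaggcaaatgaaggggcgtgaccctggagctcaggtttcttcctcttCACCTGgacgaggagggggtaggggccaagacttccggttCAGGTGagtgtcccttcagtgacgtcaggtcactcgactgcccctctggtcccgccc
Krt18: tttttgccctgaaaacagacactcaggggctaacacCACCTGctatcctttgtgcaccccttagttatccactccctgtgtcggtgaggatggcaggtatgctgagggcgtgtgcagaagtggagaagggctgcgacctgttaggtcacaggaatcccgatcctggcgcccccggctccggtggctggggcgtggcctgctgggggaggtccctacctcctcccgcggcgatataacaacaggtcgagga

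Cdh1 encodes E-cadherin, the calcium-dependent adhesion molecule of adherens junctions, and lies on chromosome 8, bases 109127251 to 109194146 on the plus strand of mm9, the build of the files. It rose with AA and rose with AA+2i. Cdh1 was at 31.8, 50.0 and 47.8 TPM in DMSO A, B and C, at 93.7, 82.8 and 101 TPM in AA, at 56.6, 46.3 and 57.2 TPM in 2i, and at 143, 125 and 99.8 TPM in AA+2i. The 6 libraries of AA and AA+2i lay above the 3 with DMSO, whereas those of 2i overlapped them. The mean level was 43.2 ± 9.89 TPM (SD, n = 3) in DMSO, 92.4 ± 8.92 in AA, 53.4 ± 6.14 in 2i and 123 ± 21.5 in AA+2i, so the mean was 2.14 times that of DMSO in AA and 2.84 times in AA+2i. On the log2 scale of edgeR's quasi-likelihood test the change was 1.13 ± 0.20 (SE; adjusted p = 0.0180) for AA, 0.50 ± 0.20 (adjusted p = 0.220) for 2i and 1.71 ± 0.20 (adjusted p = 0.00068) for AA+2i. The AA+2i call held without any 1 library, with adjusted p by edgeR up to 0.0040, and without both DMSO A and AA+2i C, where the log2 change was 1.61. The AA call was lost without DMSO A, DMSO B, AA B or AA C, where the log2 change ranged down to 0.98 and adjusted p up to 0.0878 by edgeR, and without both DMSO A and AA+2i C (adjusted p = 0.0905).

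Epcam, a homophilic adhesion protein of epithelia that is also a surface marker of pluripotent cells, lies on chromosome 17 (88035319 to 88050446, plus strand) and had the highest mean level of the members in each condition. It was at 66.1, 98.7 and 98.3 TPM in DMSO, at 124, 146 and 228 TPM in AA, at 60.5, 63.5 and 69.8 TPM in 2i, and at 163, 172 and 153 TPM in AA+2i. The AA and AA+2i libraries all lay above the DMSO libraries, and AA C was the highest of the 12. The mean was 87.7 ± 18.7 TPM (SD, n = 3) in DMSO, 166 ± 54.9 in AA, 64.6 ± 4.72 in 2i and 163 ± 9.45 in AA+2i. Epcam rose with AA+2i by 1.10 ± 0.26 on the log2 scale (adjusted p = 0.0240, edgeR). With AA the change was 0.96 ± 0.26 (adjusted p = 0.125, edgeR), and with the GC curves removed it was 0.87 (adjusted p = 0.0163). The AA+2i call was lost without DMSO A, DMSO B or any 1 of the 3 AA+2i libraries (edgeR adjusted p up to 0.0833), and without both DMSO A and AA+2i C the log2 change was 0.92 (adjusted p = 0.199).

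**Figure D2:**
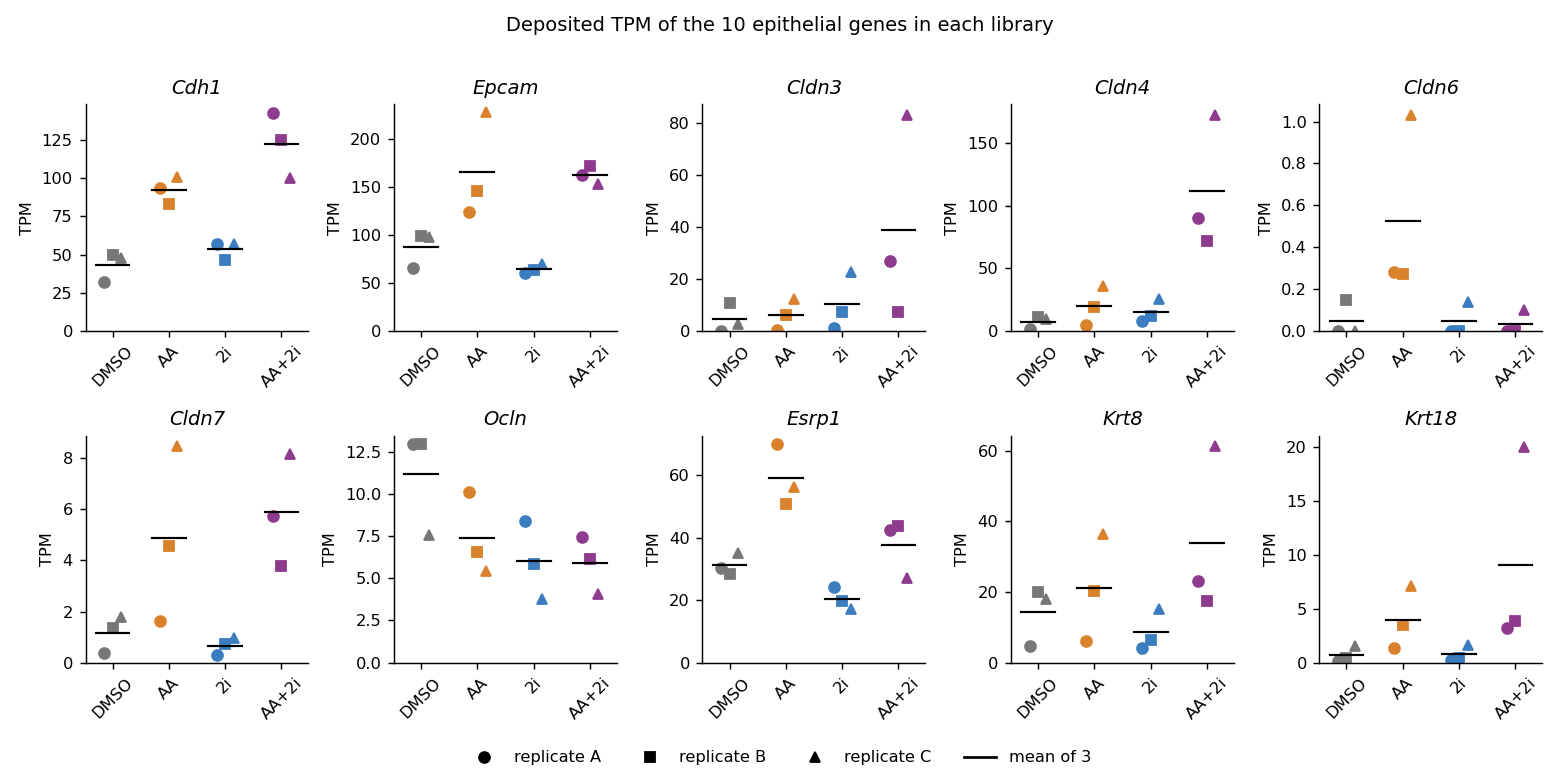
Deposited TPM of the 10 genes in each of the 12 libraries, with a symbol for each replicate letter and a bar at the mean of 3, on a separate axis from 0 for each gene. Cdh1 and Epcam are higher in every AA and AA+2i library than in any DMSO library, while Cldn3, Cldn4, Krt8 and Krt18 are highest in AA+2i C.

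Claudins are membrane proteins whose pairing across cells sets the tightness of the seal, and the 4 members of the family differed in level and in response. Cldn4, on chromosome 5 (135420996 to 135422804, minus strand), had the largest fitted change with AA+2i of the 9 tested members. It was at 1.36, 11.2 and 9.91 TPM in DMSO, at 4.61, 19.4 and 35.8 TPM in AA, at 8.19, 11.8 and 25.6 TPM in 2i, and at 89.9, 72.2 and 172 TPM in AA+2i. The AA+2i libraries lay above the other 9, and the AA and 2i libraries each overlapped DMSO. Cldn4 rose with AA+2i by 4.18 ± 0.93 on the log2 scale (adjusted p = 0.0185, edgeR). With AA the change was 1.495 ± 0.84 (adjusted p = 0.708) and with 2i 1.26 ± 0.83 (adjusted p = 0.501). The AA+2i call was lost without DMSO B or AA+2i C (edgeR adjusted p up to 0.0642), and without both DMSO A and AA+2i C the log2 change was 3.10 (adjusted p = 0.106).

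Cldn7, on chromosome 11 (69778281 to 69781387, plus strand), was expressed at a low level, with higher means in both conditions with AA. It was at 0.38, 1.37 and 1.78 TPM in DMSO, at 1.63, 4.55 and 8.47 TPM in AA, at 0.30, 0.73 and 0.96 TPM in 2i, and at 5.74, 3.79 and 8.16 TPM in AA+2i. DMSO A and 2i A held 4 counts each. All AA+2i libraries lay above all DMSO and 2i libraries, and AA A fell within the DMSO range. Cldn7 rose with AA+2i by 2.52 ± 0.69 on the log2 scale (adjusted p = 0.0474, edgeR), a call near the threshold that was lost without any 1 of DMSO A, B or C, AA B, 2i A, B or C, or AA+2i A, B or C (adjusted p up to 0.177). Without both DMSO A and AA+2i C the log2 change was 1.71 (edgeR adjusted p = 0.349). With AA the change was 2.03 ± 0.68 (adjusted p = 0.275) and, with the GC curves removed, 1.74 (adjusted p = 0.0213, edgeR).

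Cldn3, 39279 bases from Cldn4 on chromosome 5 (135462084 to 135463342, plus strand), had the widest range of log2 CPM among replicates of the 9 in every condition. It was at 0.10, 10.9 and 2.63 TPM in DMSO, at 0.34, 6.09 and 12.4 TPM in AA, at 1.17, 7.33 and 22.6 TPM in 2i, and at 26.8, 7.30 and 83.2 TPM in AA+2i. DMSO A held 1 count, and the conditions overlapped throughout. The change with AA+2i was 3.47 ± 1.51 on the log2 scale (adjusted p = 0.184, edgeR), or 2.35 with the GC curves removed (adjusted p = 0.0441), and 1.55 without both DMSO A and AA+2i C (adjusted p = 0.871). Cldn6, a claudin of early embryonic epithelia on chromosome 17 (23816332 to 23819413, plus strand), did not pass the count filter. It reached 1.03 TPM in AA C, where it held 19 counts, and had 0 counts in 6 of the 12 libraries, so no test was made.

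Ocln encodes occludin, a tight-junction membrane protein unrelated in sequence to the claudins, and lies on chromosome 13 (101266462 to 101322673, minus strand). Its levels were 13, 12.96 and 7.58 TPM in DMSO, 10.1, 6.58 and 5.43 TPM in AA, 8.42, 5.87 and 3.78 TPM in 2i, and 7.44, 6.14 and 4.09 TPM in AA+2i. The AA+2i libraries lay below the DMSO libraries, while those with AA or 2i overlapped them. Ocln was the 1 tested member with a negative fitted change in each of the 3 comparisons with DMSO. The log2 change was −0.58 ± 0.32 for AA (adjusted p = 0.702), −0.72 ± 0.32 for 2i (adjusted p = 0.305) and −0.73 ± 0.32 for AA+2i (adjusted p = 0.191, all edgeR), so none passed this test. Its GC content was the lowest of the members, and the change with AA+2i was −0.37 with the GC curves removed and −0.41 without both DMSO A and AA+2i C.

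Esrp1, an RNA-binding protein that sets epithelial splice forms, lies on chromosome 4 (11259080 to 11313930, minus strand) and had AA and 2i libraries on opposite sides of DMSO. It was at 30.1, 28.2 and 34.9 TPM in DMSO, at 69.9, 50.6 and 56.2 TPM in AA, at 24.0, 19.6 and 17.1 TPM in 2i, and at 42.3, 43.6 and 27.1 TPM in AA+2i. All AA libraries lay above and all 2i libraries below the DMSO libraries, and AA+2i C lay below all 3 DMSO libraries. The log2 change was 0.93 ± 0.20 for AA (adjusted p = 0.0550), −0.45 ± 0.20 for 2i (adjusted p = 0.305) and 0.45 ± 0.20 for AA+2i (adjusted p = 0.197, all edgeR). With the GC curves removed, edgeR gave 1.00 for AA (adjusted p = 0.0025) and 0.64 for AA+2i (adjusted p = 0.0095), both past the threshold, and −0.35 for 2i (adjusted p = 0.148).

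Krt8 and Krt18 encode the obligate type II and type I pair of simple epithelia and lie 23873 bases apart on chromosome 15 (101827142 to 101834773, minus strand, and 101858647 to 101862457, plus strand). Krt8 was at 4.72, 20.0 and 17.9 TPM in DMSO, at 6.19, 20.2 and 36.5 TPM in AA, at 4.25, 6.52 and 15.0 TPM in 2i, and at 23.0, 17.3 and 61.3 TPM in AA+2i. Krt18 was at 0.18, 0.39 and 1.57 TPM in DMSO, at 1.37, 3.46 and 7.08 TPM in AA, at 0.28, 0.46 and 1.64 TPM in 2i, and at 3.22, 3.89 and 20.0 TPM in AA+2i. Krt8 overlapped DMSO in every condition, and Krt18 lay above DMSO in all 3 AA+2i libraries. Its DMSO libraries held 2, 12 and 18 counts. The log2 change of Krt18 with AA+2i was 4.01 ± 1.12 (adjusted p = 0.0502, edgeR), or 3.46 with the GC curves removed (adjusted p = 0.0156). It passed without DMSO C, AA A or 2i C, and without both DMSO A and AA+2i C it was 2.08 (edgeR adjusted p = 0.451). The log2 change of Krt8 was 1.56 ± 0.80 for AA+2i (adjusted p = 0.241), 0.64 ± 0.79 for AA (adjusted p = 0.950) and −0.48 ± 0.79 for 2i (adjusted p = 0.766, all edgeR). Without both DMSO A and AA+2i C its log2 change with AA+2i was 0.25. The TPM of Krt8 was 11.4 to 51.2 times that of Krt18 in DMSO and 9.16 to 15.2 times in 2i, against 4.52 to 5.84 times in AA and 3.06 to 7.14 times in AA+2i, so the ratios in the conditions with AA lay below those in the conditions without it. These ratios rest on few Krt18 counts where it is low, and they leave out Krt19, which is described below with the other keratins. Trophectoderm, an embryonic epithelium rich in both keratins, was checked by 7 markers. They summed to 44.22 to 69.05 TPM in DMSO, 52.45 to 66.31 in AA, 28.49 to 32.08 in 2i and 30.63 to 38.02 in AA+2i, mostly from Tead4, while Cdx2 reached 0.80 TPM and Elf5 0.42 TPM at most. Of the 5 tested, edgeR called 0 with AA, 1 lower with 2i and 2 lower with AA+2i, at list medians of 0.49, −0.63 and 1.11 on the log2 scale, and with AA+2i all 5 were at an unadjusted p under 0.05. Eomes, a T-box factor of trophoblast stem cells, fell with 2i (−1.03, adjusted p = 0.0293) and with AA+2i (−1.17, adjusted p = 0.0106, edgeR), and Tead4, a factor that acts ahead of Cdx2, fell with AA+2i (−0.80, adjusted p = 0.0363, edgeR). The Eomes call with AA+2i was lost without AA+2i B (adjusted p = 0.0549), the one with 2i without DMSO A, DMSO C, AA B, AA+2i A or any 1 2i library (up to 0.116, edgeR), and that of Tead4 without DMSO B, DMSO C, AA C, AA+2i B, AA+2i C or any 1 2i library (up to 0.160) and with the GC curves removed (adjusted p = 0.0666). All 3 calls were lost without both DMSO A and AA+2i C. Hand1 was at 0.81 ± 0.68 TPM (SD, n = 3) in DMSO and 4.02 ± 3.34 in AA+2i, Krt7 at 0.19 ± 0.04 and 1.57 ± 1.60, and Gata3 at 0.57 ± 0.17 and 1.06 ± 0.08, with log2 changes of 2.61, 3.40 and 1.11 that did not pass (adjusted p = 0.142, 0.0947 and 0.126, edgeR). The 6 markers of keratinocytes summed to 5.07 to 8.06, 5.83 to 9.30, 3.39 to 6.76 and 8.77 to 25.66 TPM in the same order, with Krt14 at up to 20.9 TPM in the AA+2i libraries. Of the 3 tested, Trp63, a regulator of stratified epithelia, fell with 2i (−2.09, adjusted p = 0.0081) and with AA+2i (−1.80, adjusted p = 0.0095, edgeR) from 0.91 ± 0.17 TPM in DMSO to 0.21 ± 0.08 and 0.25 ± 0.04, and both calls held without any 1 library, but that with AA+2i was lost without both DMSO A and AA+2i C. Krt14 had a log2 change of 3.02 with AA+2i (adjusted p = 0.153, edgeR), or 2.41 with the GC curves removed (adjusted p = 0.0499). The part of either cell type in the keratin levels was not tested.

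The 9 tested members are summarised by counts and medians beside those of the 13400 tested genes. With AA, 1 of 9 rose (Cdh1), where 1.34% of all tested genes were called and 0.866% were called higher. With 2i, 0 of 9 passed edgeR's test, where 4.42% of all genes were called. At an unadjusted p under 0.05 there were 3, and DESeq2 and limma called 0, where they called 8.2% and 4.63% of all genes. With AA+2i, 4 of 9 rose (Cdh1, Epcam, Cldn4 and Cldn7) and 0 fell, where 8.34% were called and 3.93% called higher. The median log2 change of the 9 was 0.96 for AA, −0.24 for 2i and 1.71 for AA+2i, beside −0.01, −0.02 and −0.02 over all genes tested. Fitted changes were positive for 8, 4 and 8 of the 9. With the GC curves removed 4, 0 and 7 members were called, where 3.88%, 11.5% and 19.2% of all genes were. Without both DMSO A and AA+2i C the counts were 0, 0 and 1, the last being Cdh1, where 0.474%, 2.77% and 2.9% of all genes were called. In TPM, all 3 libraries of AA lay above DMSO for 3 of the 9 (5.36% of all tested genes) and all 3 of AA+2i for 5 (9.6%), while all 3 of 2i lay below it for 1 (14.7%) and all 3 of AA+2i for 1 (22.5%). The 3 comparisons share the DMSO libraries.

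**Figure D3:**
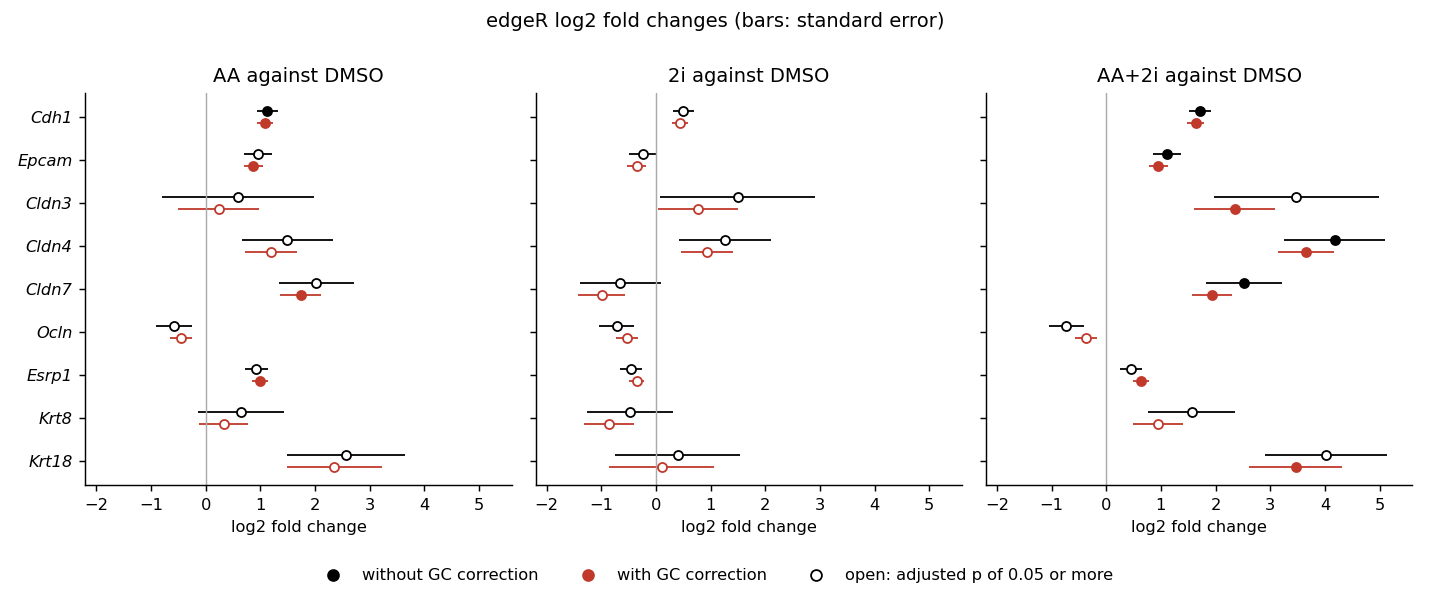
edgeR log2 fold changes against DMSO of the 9 tested members, with bars of 1 standard error, without (black) and with (red) removal of the GC curves. Filled points have an adjusted p under 0.05. Cdh1 is filled in black with AA and with AA+2i, no point is filled with 2i, and Cldn4 has the largest change, 4.18 with AA+2i.

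Adding AA to 2i was compared directly with 2i alone. Cdh1 rose by 1.21 ± 0.20 on the log2 scale (adjusted p = 0.0175, edgeR) and Epcam by 1.35 ± 0.26 (adjusted p = 0.0381), so 2 of 9 members passed where 0.91% of all genes did and 0.761% passed as higher. The Cdh1 call was lost without any 1 of the 2i libraries, AA+2i A or AA+2i B (edgeR adjusted p up to 0.132). The Epcam call was lost without DMSO B, AA B, or any 1 library of 2i or AA+2i (adjusted p up to 0.198). Without both DMSO A and AA+2i C, edgeR gave 1.26 for Cdh1 (adjusted p = 0.0351) and 1.30 for Epcam (adjusted p = 0.116). In TPM the 3 AA+2i libraries lay above the 3 libraries with 2i for 7 of the 9 tested members, all except Cldn3 and Ocln, where this held for 9.72% of all tested genes. The mean TPM ratio of AA+2i to 2i in these 7 was 2.30 for Cdh1, 2.52 for Epcam, 7.35 for Cldn4, 8.89 for Cldn7, 1.86 for Esrp1, 3.94 for Krt8 and 11.4 for Krt18. With the GC curves removed, Cldn4, Cldn7, Esrp1 and Krt18 were called as well, 6 of 9, where 4.31% of all genes were. The median log2 change of the 9 was 1.98, beside 0.00 over all genes.

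Adding 2i to AA was compared with AA alone. None of the 9 members (0 of 9) passed edgeR's test between AA+2i and AA, where 6.1% of all genes did, with 3 at an unadjusted p under 0.05, 1 called by DESeq2 and 0 by limma, which called 9.77% and 6.07% of all genes. Cldn4 had a log2 difference of 2.69 ± 0.86 (adjusted p = 0.107, edgeR), with all 3 libraries higher (7.66% of all tested genes), and passed with the GC curves removed (2.46, adjusted p = 0.0049), as did Cdh1 (0.55, adjusted p = 0.0303), where 14.4% of all genes passed. Esrp1 was lower in all 3 libraries with AA+2i than with AA (16.8% of all tested genes), by −0.48 ± 0.20 (adjusted p = 0.249, edgeR), and Epcam differed by 0.14 ± 0.25 (adjusted p = 0.788). The interaction, the change for AA+2i less the separate changes for AA and for 2i, passed for 0 of 9 members by edgeR, DESeq2 and limma, with 0 at an unadjusted p under 0.05, where these tools called 0.0149%, 0.194% and 0.097% of all genes. It was 0.07 ± 0.28 on the log2 scale for Cdh1 and 1.42 ± 1.16 for Cldn4. The median interaction of the 9 was 1.05, with 8 positive, beside −0.002 over all genes. With the GC curves removed 3 members were at an unadjusted p under 0.05 and 0 were called by edgeR, where 0.0224% of all genes were.

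The members' partners were taken from lists of further junction and epithelial genes. Counts in these and the other lists are to be read beside the shares of all tested genes called against DMSO. In the order AA+2i, 2i and AA, edgeR called 8.34%, 4.42% and 1.34%, and 19.2%, 11.5% and 3.88% with the GC curves removed. DESeq2 called 14%, 8.2% and 3.39% in that order, and limma 8.31%, 4.63% and 1.7%. For AA+2i edgeR called 3.93% higher and 4.41% lower. Whether any list exceeded these shares was not tested. Of 21 tested tight-junction partners, 1 rose with AA+2i (Marveld3, a relative of occludin in tight junctions, 1.81 on the log2 scale, adjusted p = 0.0039, edgeR) and 0 fell. The median of the list was 0.30. With AA and with 2i edgeR called 0 of the 21, with 5 at an unadjusted p under 0.05 in each comparison, while DESeq2 called 2 and 3 and limma 0 and 0. After removal of the GC curves 0 of the 21 were called with AA, 1 higher and 5 lower with 2i, and 3 higher and 2 lower with AA+2i, at list medians of 0.04, −0.16 and 0.27. Tjp1, the scaffold ZO-1, and Prkci, a polarity kinase, were among those lower in both conditions with 2i, and Tjp3, Prkcz and Marveld3 were the 3 higher with AA+2i. Of 20 partners in adherens junctions and desmosomes, 3 rose and 1 fell with AA+2i, at a list median of 0.26. Dsg2, a desmosomal cadherin, was at 13.03 ± 2.31 TPM (SD, n = 3) in DMSO, 31.1 ± 9.83 in AA, 15.9 ± 3.37 in 2i and 43.1 ± 10.1 in AA+2i. It rose with AA (1.28, adjusted p = 0.0180) and with AA+2i (1.93, adjusted p = 0.00071, edgeR), and the AA call was lost without any 1 DMSO library (adjusted p up to 0.0737). Dsp, which anchors keratins to desmosomes, rose with 2i (0.99, adjusted p = 0.0337) and with AA+2i (1.66, adjusted p = 0.0017), and Vcl, the actin linker vinculin, fell with 2i (−1.04, adjusted p = 0.0256) and with AA+2i (−1.37, adjusted p = 0.0043, all edgeR). With 2i the Dsp call was lost without any 1 of 8 libraries (DMSO A, B or C, AA B, 2i A, B or C, or AA+2i B) and the Vcl call without any 1 of 5 (DMSO A or B, or 2i A, B or C), with adjusted p by edgeR up to 0.126 and 0.124. Pkp1, a desmosomal plaque protein, rose with AA+2i (0.80, adjusted p = 0.0254, edgeR), a call lost without DMSO A, B or C, AA+2i A or AA+2i B, and with the GC curves removed (adjusted p = 0.380). After that correction the list had 1 higher with AA, 2 higher and 1 lower with 2i, and 3 higher (Dsg2, Dsp and Ppl) and 4 lower (Vcl, Pvrl1, Pvrl3 and Perp) with AA+2i, where its median was −0.02 against 0.26 without the correction. The calls of Marveld3 and Pkp1 with AA+2i, of Dsg2 with AA, and of Dsp and Vcl with 2i were lost without both DMSO A and AA+2i C. Those of Dsg2 with AA, Dsp with 2i and Pkp1 with AA+2i were also lost by limma.

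Of 17 tested genes in a list of other epithelial genes and regulators, 2 rose with AA, 1 fell with 2i, and 3 rose and 1 fell with AA+2i. The list medians were 0.54, −0.23 and 0.76 on the log2 scale. Rab25, a small GTPase of epithelial recycling endosomes, was at 0.16 ± 0.18 TPM (SD, n = 3) in DMSO, 4.45 ± 3.33 in AA, 0.17 ± 0.07 in 2i and 3.71 ± 0.74 in AA+2i. It rose with AA (4.54, adjusted p = 0.0235) and with AA+2i (4.45, adjusted p = 0.0078, edgeR), and the AA call was lost without any 1 DMSO library, AA B or AA C (adjusted p up to 0.0839). Grhl2, a grainyhead-like activator of junction genes, rose with AA (3.05, adjusted p = 0.0246, edgeR) from 0.03 ± 0.03 to 0.32 ± 0.10 TPM, and the call was lost without DMSO B, DMSO C or AA+2i A (adjusted p up to 0.0857). These levels are low, and Grhl2 was at 0.02 ± 0.01 TPM in 2i and 0.06 ± 0.01 in AA+2i. It was lower in AA+2i than in AA (−2.29, adjusted p = 0.0269, edgeR). Its relative Grhl1 rose with AA+2i (0.75, adjusted p = 0.0342, edgeR), a call that held only when AA A or 2i C was the library left out (adjusted p up to 0.120). Limma did not call Grhl1 with AA+2i. The epithelial ETS factors Elf3 and Ehf went opposite ways. Elf3 rose with AA+2i (1.83, adjusted p = 0.0258, edgeR), a call lost without DMSO A, DMSO B or any 1 AA+2i library (adjusted p up to 0.0810). Ehf fell in 2i (−1.80, adjusted p = 0.0127) and in AA+2i (−2.01, adjusted p = 0.0049, edgeR), from 66 ± 19.3 TPM in DMSO to 16.9 ± 5.62 and 14.5 ± 4.51, and the 2i call was lost without 2i B or 2i C (adjusted p up to 0.0653). In the GC-corrected fit 2 were higher with AA, 1 higher and 4 lower with 2i, and 4 higher and 1 lower with AA+2i, at medians of 0.27, −0.51 and 0.38. Without both DMSO A and AA+2i C, of the calls in this list only that of Ehf with 2i was kept.

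**Figure D4:**
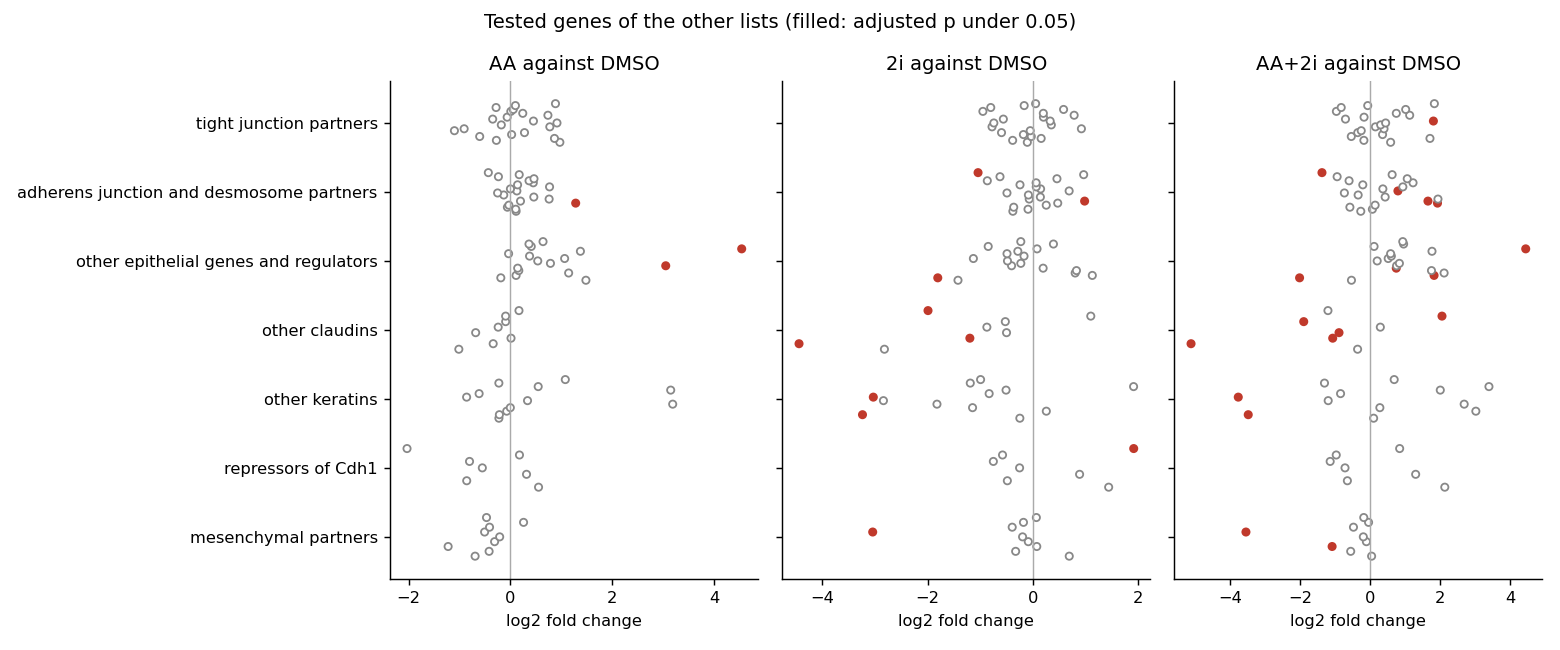
edgeR log2 fold changes against DMSO of the tested genes of 7 further lists, 1 point a gene, filled where the adjusted p is under 0.05. The scale of the horizontal axis differs between panels. The filled points among other claudins and keratins lie below 0 except for 1 claudin with AA+2i.

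Among claudins and keratins outside the 10 members, those that passed with 2i fell, and with AA+2i 6 fell and 1 rose. Of 19 other claudins, 8 were tested, and with AA+2i 1 rose and 4 fell, at a list median of −0.98 on the log2 scale. With 2i 0 rose and 3 fell, and with AA edgeR, DESeq2 and limma called 0, with 1 at an unadjusted p under 0.05. Cldn11, best known from myelin and the testis, had the highest mean level of all claudins in each condition, at 306 ± 120 TPM (SD, n = 3) in DMSO and 298 ± 20.9 in AA against 115 ± 15.8 in 2i and 124 ± 18.6 in AA+2i. It fell with 2i (−1.19, adjusted p = 0.0272) and with AA+2i (−1.07, adjusted p = 0.0291, edgeR). Both calls were lost without DMSO A, DMSO B or 2i B, the first also without 2i A and the second also without any 1 AA+2i library (adjusted p up to 0.126 and 0.109). Cldn10, a claudin with ion-selective forms, fell with AA+2i (−5.11, adjusted p = 0.0056, edgeR) from 2.76 ± 0.94 TPM to 0.07 ± 0.12. It fell with 2i too (−4.44, adjusted p = 0.0137, edgeR), a call lost without 2i A or 2i B (adjusted p up to 0.0648). Cldn23 rose with AA+2i (2.06, adjusted p = 0.0054, edgeR) from 1.60 ± 0.84 to 5.64 ± 0.70 TPM. Cldn9 fell with 2i (−1.99, adjusted p = 0.0398) and Cldn2, a pore-forming claudin, with AA+2i (−1.89, adjusted p = 0.0148, both edgeR). Cldn12 fell with AA+2i as well (−0.89, adjusted p = 0.0470, edgeR), was named after its values were seen, and lost its call without any 1 of 10 libraries, all except DMSO C and AA A (adjusted p up to 0.191). The Cldn9 call was lost without any 1 of DMSO A, B or C, AA B, 2i A, 2i B, AA+2i A or AA+2i B, and the Cldn2 call without any 1 AA+2i library (adjusted p up to 0.174 and 0.0635, edgeR). Of 44 other keratins 12 were tested, and with 2i and with AA+2i 0 rose and 2 fell, at list medians of −1.07 and 0.19. With AA edgeR, DESeq2 and limma called 0, with 1 at an unadjusted p under 0.05. Krt13, of stratified mucosa, was at 5.74 ± 3.17 TPM in DMSO and 0.52 ± 0.19 in 2i (−3.24, adjusted p = 0.0290, edgeR), and Krt20, of gut epithelium, at 1.2 ± 0.37 and 0.12 ± 0.11 (−3.03, adjusted p = 0.0426). With 2i the Krt13 call was lost without DMSO B, DMSO C or any 1 2i library (adjusted p up to 0.115), and the Krt20 call held only when AA A or AA+2i C was left out (up to 0.135, edgeR). With AA+2i Krt13 changed by −3.48 (adjusted p = 0.0137) and Krt20 by −3.76 (adjusted p = 0.0140, edgeR), calls lost without any 1 AA+2i library for Krt13 (adjusted p up to 0.0652) and without AA+2i A for Krt20 (0.0506). After GC correction the other claudins had 1 lower with AA, 3 lower with 2i, and 1 higher and 5 lower with AA+2i, and the other keratins 0 with AA, 4 lower with 2i, and 1 higher (Krt14) and 4 lower with AA+2i. Krt19 had the highest mean level of all keratins in each condition and was named after its values were seen. It was at 98.1 ± 64.6 TPM in DMSO, 116 ± 88.3 in AA, 11.6 ± 5.67 in 2i and 35.2 ± 15.9 in AA+2i. Its log2 change was −2.84 with 2i (adjusted p = 0.0969) and −1.19 with AA+2i (adjusted p = 0.337, edgeR). After GC correction both passed, at −3.17 (adjusted p = 0.0010) and −1.77 (adjusted p = 0.0133). The calls of Cldn10 and Krt13 were kept without both DMSO A and AA+2i C, and those of Cldn2, Cldn9, Cldn11, Cldn12, Cldn23 and Krt20 were lost.

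Repressors of Cdh1 had fitted changes of both signs, positive for 3 of 7 tested in each comparison with DMSO. Of the 7, edgeR called 0 with AA and 0 with AA+2i, with 2 at an unadjusted p under 0.05 in each comparison, where DESeq2 called 1 and 1 and limma 0 and 1. The list medians were −0.55 and −0.65 on the log2 scale. Zeb2, a zinc-finger repressor of E-cadherin, was at 1.38 ± 0.56 TPM (SD, n = 3) in DMSO, 0.34 ± 0.17 in AA, 4.72 ± 2.09 in 2i and 2.23 ± 1.00 in AA+2i. It rose with 2i (1.92, adjusted p = 0.0387, edgeR), a call lost without any 1 of 8 libraries (DMSO B or C, AA B, 2i A, B or C, AA+2i A or AA+2i B, adjusted p up to 0.138). With AA its change was −2.03 (adjusted p = 0.0701, edgeR) and with AA+2i 0.85 (adjusted p = 0.252). With the GC curves removed both passed, at −1.87 (adjusted p = 0.0025) and 1.25 (adjusted p = 0.0054), that is with opposite signs. In that fit AA+2i had 1 higher and 2 lower of the 7, at a median of −0.15, the lower ones being Zeb1 (−0.68, adjusted p = 0.0334, edgeR) and Twist1 (−2.23, adjusted p = 0.0262), which without the correction were at −0.96 (adjusted p = 0.129) and −1.14 (adjusted p = 0.0694). Snai1 and Tcf3 had positive changes with AA+2i that passed neither fit. Snai1 was at 1.12 ± 0.87 TPM in DMSO and 4.10 ± 2.81 in AA+2i (2.14, adjusted p = 0.204, edgeR). Tcf3 was at 52.5 ± 47.7 and 103 ± 56.2 TPM (1.30, adjusted p = 0.347). With the GC curves removed their changes were 1.29 and 0.34.

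Among 9 tested mesenchymal partners 0 rose and 2 fell with AA+2i, at a list median of −0.19, and 1 fell with 2i. With AA edgeR and limma called 0 and DESeq2 1, with 3 at an unadjusted p under 0.05. Cdh2, which encodes N-cadherin, the cadherin of mesenchymal and neural cells, was at 41.7 ± 11.5 TPM (SD, n = 3) in DMSO, 17.4 ± 4.87 in AA, 38.6 ± 11 in 2i and 17.2 ± 6.20 in AA+2i. It fell with AA+2i (−1.08, adjusted p = 0.0354, edgeR), a call lost without DMSO A, DMSO B, AA B, 2i B or any 1 AA+2i library (adjusted p up to 0.135). With AA the change was −1.22 (adjusted p = 0.0645, edgeR), which passed with the GC curves removed (adjusted p = 0.0066). The AA+2i call was also lost without both DMSO A and AA+2i C. With the GC curves removed 0 of the 9 were higher, and 2 were lower for AA, 2 for 2i and 4 for AA+2i, and the median with AA+2i was −0.67. Sparc, a matrix protein, was lower in each of the 3 and Itga5 in AA+2i. The TPM of Cdh1 was 0.790, 0.927 and 1.54 times that of Cdh2 in the DMSO libraries, 4.09, 5.29 and 7.35 times for AA, 1.13, 1.24 and 2.02 times for 2i, and 6.54, 6.38 and 9.83 times for AA+2i. The ratios with AA and with AA+2i all lay above the 6 ratios without AA. S100a4, a calcium-binding protein of fibroblasts, fell instead in both conditions with 2i, by −3.04 for 2i (adjusted p = 0.00058) and by −3.54 for AA+2i (adjusted p = 0.00021, edgeR), and was not called for AA (−0.51, adjusted p = 0.739). Vim had the highest mean of the list, at 1095 ± 68.5 TPM in DMSO, 776 ± 92.2 in AA, 1006 ± 123 in 2i and 831 ± 108 in AA+2i. Neither Vim (−0.18 with AA+2i, adjusted p = 0.563) nor Fn1 (−0.10, adjusted p = 0.860, both edgeR) was called in any of the 3 comparisons, with or without GC correction. The 10 genes of the list summed to 2126 to 3137, 1723 to 1941, 1674 to 1912 and 1475 to 1703 TPM in the same order.

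**Figure D5:**
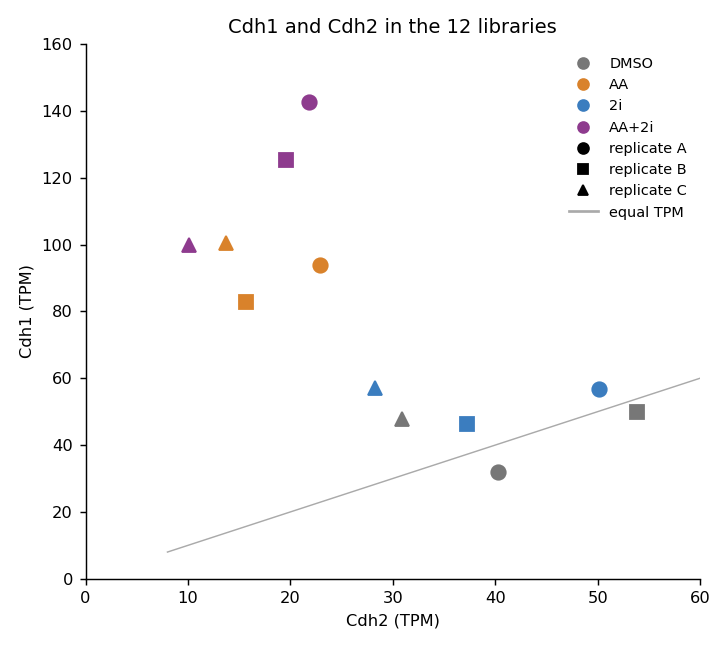
TPM of Cdh1 against TPM of Cdh2 in the 12 libraries, with conditions as colours, a symbol for each replicate letter and a line at equal TPM. The 6 libraries with AA or AA+2i lie at the upper left, with Cdh1 at 82.8 to 143 TPM and Cdh2 at 10.2 to 22.9 TPM, apart from the 6 libraries with DMSO or 2i.

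Genes with the pattern most like that of the members were sought by Pearson's r over the 12 libraries in log2 CPM. These are descriptions, because the libraries share conditions, depth and GC dependence. Closest to the mean z-score of the 9 tested members were St6galnac2 (r = 0.987), Stk30 (0.979), Fam25c (0.976), AI118078 (0.975) and Celf3 (0.973). Fam25c, for example, had a mean of 16.2 TPM in DMSO, 54.5 in AA, 11.7 in 2i and 79.8 in AA+2i. Of the members themselves, each of which is part of that mean, Cldn7 (0.986) and Epcam (0.966) followed that mean most closely, and Esrp1 (0.587) and Ocln (−0.543) least. Closest to Cdh1 were Kng2 (0.974), Slc4a5 (0.970), the pluripotency factor Nanog (0.960), Chrna9 (0.957) and Spp1 (0.949). With the GC curves removed the 5 closest were the desmosomal cadherin Dsg2 (0.983), Slc4a5 (0.965), Gpr85 (0.961), Aox3 (0.959) and Fam154a (0.959), and Nanog was not among them. Nanog had a mean of 4.41 TPM in DMSO, 17.8 in AA, 6.08 in 2i and 36.6 in AA+2i, the same order of conditions as Cdh1. Of a list of 8 pluripotent cell markers, all tested, edgeR called 3 higher with AA, 1 lower with 2i and 4 higher with AA+2i. Dppa3 shared the order of Nanog, but others did not. Zfp42 was at 2.37 TPM in DMSO, 15.8 in AA, 1.08 in 2i and 6.71 in AA+2i. Tdgf1 was at 123, 354, 28.1 and 127 TPM in turn. Pou5f1 was not called, with negative fitted changes in each comparison with DMSO. Nanog rose with AA (2.02, adjusted p = 0.0168) and with AA+2i (3.23, adjusted p = 0.00050, edgeR), the AA call being lost without DMSO A, DMSO B, AA B or AA C (adjusted p up to 0.0671) and without both DMSO A and AA+2i C. Zfp42 (2.77, adjusted p = 0.0053) and Tdgf1 (1.53, adjusted p = 0.0180) also rose with AA by edgeR. Tdgf1 fell with 2i (−1.97, adjusted p = 0.0026, edgeR). Zfp42 (1.72, adjusted p = 0.0137), Esrrb (3.70, adjusted p = 0.0021) and Dppa3 (6.75, adjusted p = 0.0010) rose with AA+2i by edgeR. Without DMSO A, DMSO B or AA C the Tdgf1 call with AA was lost. That of Zfp42 with AA+2i was lost without DMSO A, DMSO B or AA+2i C. Both were lost without DMSO A and AA+2i C together.

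The order of the members by mean TPM was led by Epcam and Cdh1 in each condition. Epcam and Cdh1 did not overlap in any condition. With DMSO the order then ran Esrp1, Krt8, Ocln, Cldn4, Cldn3, Cldn7, Krt18 and Cldn6, in which Cdh1 overlapped Esrp1 and the neighbours from Krt8 to Krt18 overlapped each other. With AA+2i Cldn4 (111 TPM) moved to the third place, overlapping Cdh1, and Ocln (5.89 TPM) to the ninth, overlapping Cldn7. With 2i Cldn4 and Cldn3 came before Krt8 and Ocln, in that order after Esrp1, and each of these 5 overlapped its neighbours among them. Krt18 (0.793 TPM) and Cldn7 (0.663 TPM) followed, changed places against DMSO and overlapped each other. The members summed to 148 to 234 TPM in DMSO, 312 to 491 in AA, 162 to 214 in 2i and 451 to 629 in AA+2i, with Epcam and Cdh1 the largest parts except in AA+2i C, where Cldn4 was the largest.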

How the data were processed

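RNA was sequenced on a TruSeq library from 12 samples, 3 in each of 4 conditions. Per the study's methods, the authors trimmed reads, aligned them with Bowtie2 to RefSeq genes of mm9 and estimated gene levels with RSEM 1.2.4 without strand, so overlapping genes on opposite strands cannot be told apart. The authors deposited expected counts, which need not be whole where RSEM shared reads between genes, with TPM and FPKM values, which correct for transcript length. 1 unreadable TPM value (0610011F06Rik in AA C) was recomputed from the deposited FPKM as 40.57. Sums of expected counts were 16173322 to 54392719 per library.

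Expected counts were rounded and 13400 of 20325 genes, those reaching 10 counts in 3 or more libraries, were tested with edgeR 4.0.16 (R 4.3.3) by the quasi-likelihood method with RLE factors, 1 coefficient per condition and Benjamini-Hochberg adjustment over all tested genes, with calls at an adjusted p under 0.05. The authors' own test for these data was not run here. Standard errors were derived from the log2 change and its F statistic. The GC content of transcripts was known for 13297 of the tested genes. A loess curve against GC (span 0.4) was fitted in each library to log2 CPM (prior count 2) less each gene's mean over libraries. This curve and the log library size formed the offset of the GC-corrected fit, in place of the RLE factors. Alternatives were TMM factors, DESeq2 1.42.0, limma 3.58.1 on log2(TPM + 1) and log2(TPM + 0.1), other count filters, fits on the compared groups alone, a replicate block, the GC correction, and leaving out each library. Leaving out DMSO A and AA+2i C together was chosen after seeing the data.

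The members and lists were chosen with earlier results of these data known. Named beside the members were, per list, at most 5 genes that passed against DMSO, by smallest adjusted p, and the 5 genes closest to the members' mean profile and to Cdh1. Other genes, such as Cldn12, Krt19, Vim, Thy1 and Snai1, were named after their values were seen.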

Additional observations from a re-analysis of the deposited data

How the results depend on the processing

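Counts of called members depended on the processing. With AA the count of 1 (1.34% of all genes called) became 2 with TMM factors (1.48%), 3 with DESeq2 (3.39%), 4 with the GC correction (3.88%), and 0 in the compared groups alone (0 of all genes) or without both DMSO A and AA+2i C (0.474%), and ranged from 0 to 1 when 1 library was left out. With AA+2i the count of 4 (8.34%) became 7 with the GC correction (19.2%) and 1 without both libraries (2.9%), with a range of 1 to 5 when 1 library was left out. Against 2i the count of 2 (0.91%) became 6 with DESeq2 (3.49%) or the GC correction (4.31%) and 1 with at least 10 counts in every library (0.646%) or without both libraries (0.406%), with a range of 0 to 3. Against AA the count of 0 (6.1%) became 1 with DESeq2 (9.77%) and 2 with the GC correction (14.4%). The letters of the replicates were not shown to pair the samples: residuals of libraries with the same letter correlated at −0.588 to 0.894 (mean 0.401 over 18 pairs, against −0.196 over 36 pairs with different letters), although 11 of 12 libraries matched best with their own letter, a hint from the data and not the design. With the replicate block the counts were 5 with AA, 1 with 2i, 8 with AA+2i, 7 against 2i and 3 against AA, where 4.43%, 13.3%, 31.6%, 4.52% and 14.9% of all genes were called, and with block and GC correction together 6, 5, 8, 7 and 5, where 10.9%, 24.6%, 36.1%, 10.8% and 27.4% were. The block's calls included Ocln, lower with 2i (−0.74, adjusted p = 0.0148) and with AA+2i (−0.72, adjusted p = 0.0094, edgeR). All its other calls against DMSO, without the GC correction, were higher. With AA these were Cdh1, Epcam, Cldn7, Esrp1 and Krt18. With AA+2i they were Cdh1, Epcam, Cldn3, Cldn4, Cldn7, Krt8 and Krt18. The cause was not tested. Signs turned for changes that did not pass. Ocln against 2i (−0.01) became 0.0085 with 10 counts in every library, 0.019 with the block, 0.155 with the GC correction, 0.163 with both and 0.129 without both libraries, and against AA 0.078 and 0.076 with the GC correction without and with the block. Without both libraries Krt18 was −9.0e-05 with 2i and −0.091 against AA, and the interaction was 0.093 for Esrp1 and −0.091 for Krt18. Leaving out 1 library also turned signs, over these ranges. With AA they were −0.34 to 2.17 for Cldn3 and −0.050 to 1.09 for Krt8. With 2i it was −0.71 to 1.63 for Krt18. Against 2i it was −0.22 to 0.25 for Ocln. Against AA they were −0.061 to 0.48 for Epcam, −0.32 to 0.093 for Ocln and −0.091 to 2.17 for Krt18. For the interaction they were −0.067 to 0.22 for Cdh1, −0.19 to 2.74 for Cldn3, −0.17 to 0.11 for Esrp1 and −0.49 to 2.17 for Krt18. In all, 1074 member values kept their direction and side of the threshold, 68 gained a call, 41 lost one and 32 turned sign. Counts per gene were under 20 in at least 1 DMSO library for Cldn3, Cldn7 and Krt18, which limits the precision of their changes.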
